A study of Mus musculus with 45 samples.

Results

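Stress brakes on AKT and mTORC1 is the name given here to a group of 10 genes. The group holds the sestrins Sesn1, Sesn2 and Sesn3, the REDD1 gene Ddit4 and the tribbles pseudokinases Trib1, Trib2 and Trib3. It also holds the GATOR1 subunit Depdc5 and the tuberous sclerosis genes Tsc1 and Tsc2. The name is loose for Trib1 and Trib2, which act mainly as adaptors for the ubiquitin ligase Cop1. These 10 genes were taken by symbol from the 28454 genes listed in a table of raw counts, and each had 1 row with counts in all 45 libraries. The table covers polyadenylated RNA from murine mammary tumour lines that differ in metastatic potential, in control medium or without cysteine and cystine. The study asked how the lines differ and how they respond when this source of glutathione is withdrawn. Each of the 15 combinations of line and medium had 3 cultures, labelled by a replicate number. The design text calls these technical replicates, so p-values between conditions measure the spread between cultures of a line and not between independently derived lines.

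To the MYAZ subtype belong MYAZ16.1e, MYAZ12.3i and MYAZ6.6g (MYAZ16_1e, MYAZ12_3i and MYAZ6_6g in the labels), from mammary tumours of MMTV-cMYC mice, in which a mouse mammary tumour virus promoter drives MYC in the mammary gland. Myc310 is a single line from such a mouse that carried multiple tumours. LM1, LM2 and LM3 were grown from whole dissociated lungs of mice whose fat pads had received Myc310 cells. LM1-LM (LM1_LM in the labels) was grown likewise from mice injected with LM1, while LM2-LM and LM3-LM (LM2_LM and LM3_LM) are described as its biological replicates. A further line, labelled MYAZ12_3i_NDI1, was kept in control medium; NDI1 is the symbol of a yeast NADH dehydrogenase, and the making of the line is not given in the sources used here. All lines share the MYC transgene and were grown in DMEM:F12 with serum, insulin, hydrocortisone and EGF. Cells were seeded at 250000 per well, and after 24 h the medium was replaced for 6 h by control medium or, in the case of MYAZ16.1e and Myc310 and of LM1 and LM1-LM, by medium free of cysteine and cystine (Cys deprived in the labels). Values for these 4 deprived lines are given in that order where the lines are not named. No other agent was added.

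mTORC1 is a kinase complex on the lysosome that drives protein synthesis when amino acids and growth factors are plentiful. Amino acids reach it through the Rag GTPases, which GATOR1 (Depdc5 with Nprl2 and Nprl3) switches off, while GATOR2 holds GATOR1 back and sestrins bind GATOR2 when leucine is scarce. Growth factors reach it through AKT, which inactivates the Tsc1-Tsc2 complex, the brake on the GTPase Rheb; Ddit4 favours that brake, and Trib3 can bind AKT and hold down its activation. Sesn2, Ddit4 and Trib3 are known targets of ATF4, the transcription factor made when amino acids run short, whereas Sesn1 is best known as a p53 target and Sesn3 as a FOXO target. Trib1 and Trib2 act mainly as adaptors for the ubiquitin ligase Cop1.

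Counts on genes ranged from 19517859 to 29019988 per library, with a median of 22899900. Gene positions are those of GENCODE M21 on GRCm38. Levels are given as counts per 1000000 (CPM) after TMM scaling of the 45 libraries. The lowest count of any of the 10 genes in the deprived lines' libraries was that of Sesn3 in Myc310 (38 to 58 counts). Keratins of luminal cells were abundant in all 45 libraries (Krt8 from 216.9 to 1731 CPM, Krt18 from 94.0 to 550 CPM), whereas the epithelial genes Epcam, Cdh1, Krt5, Krt14 and Cldn4 had at most 24 counts in any library. The summed levels of the 8 epithelial markers ranged from 332.6 to 2380 CPM. Of the lung and stromal genes, Sftpb, Sftpc, Dcn, Lum, Thy1 and Ptprc had at most 5 counts, while the sum of the fibroblast list reached 217.5 CPM in LM3-LM, mostly Col3a1, and that of the alveolar list 6.67 CPM at most. Other genes of these lists were present. In their highest library Pdgfra had 58.3 CPM, Pdgfrb 38.5 CPM, Cd68 18.7 CPM, Kdr 6.36 CPM and Hopx 5.76 CPM.

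Promoters are shown for the 3 genes that were past the threshold and higher in all 4 deprived lines and had an entry in RefSeq's mouse promoter table (GRCm38.p6), which runs from 250 bases before to 50 after the annotated start; 9 of the 10 genes, all but Trib1, had one. Each window is written 5′ to 3′ on the strand of the gene, which is the minus strand for all 3, and capitals mark a match to one of 5 motifs searched on both strands. The motifs were the C/EBP-ATF response element TGATGNAAN, the antioxidant response element core TGACNNNGC, the FOXO element GTAAACA, the hypoxia response element core ACGTG and the E-box CACGTG, which contains the hypoxia core. The Trib3 window held the C/EBP-ATF element on the other strand, read here as TTTACATCA, beginning at base 14 when the first transcribed base is 1; 3.95% of the 32851 windows in the table held that motif. The Sesn2 window held an antioxidant core, TGACAGAGC, at base -36 (12.4% of all windows). The Ddit4 window held a hypoxia core at base -187 (19.6% of all windows). A match is a description of these letters and not of a bound site.
Trib3, chr2:152344011-152344310: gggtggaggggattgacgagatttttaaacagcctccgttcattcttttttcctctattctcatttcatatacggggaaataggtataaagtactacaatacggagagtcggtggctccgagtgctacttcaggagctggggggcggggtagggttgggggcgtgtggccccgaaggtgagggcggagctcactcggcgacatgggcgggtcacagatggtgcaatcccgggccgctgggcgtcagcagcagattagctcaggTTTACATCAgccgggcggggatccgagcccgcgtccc
Sesn2, chr4:132510407-132510706: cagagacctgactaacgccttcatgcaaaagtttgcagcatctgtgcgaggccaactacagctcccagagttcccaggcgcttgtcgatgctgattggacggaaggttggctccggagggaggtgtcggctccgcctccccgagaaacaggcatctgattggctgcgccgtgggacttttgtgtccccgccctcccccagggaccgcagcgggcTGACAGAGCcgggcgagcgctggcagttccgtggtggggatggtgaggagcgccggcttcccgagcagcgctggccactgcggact
Ddit4, chr10:59951721-59952020: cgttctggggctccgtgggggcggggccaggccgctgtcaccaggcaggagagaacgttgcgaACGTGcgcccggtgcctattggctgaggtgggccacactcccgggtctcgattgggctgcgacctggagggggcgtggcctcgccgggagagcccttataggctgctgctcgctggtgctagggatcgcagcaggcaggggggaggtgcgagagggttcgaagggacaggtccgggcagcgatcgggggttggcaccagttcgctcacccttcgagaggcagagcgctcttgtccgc

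Without cysteine and cystine, Trib3, Sesn2 and Ddit4 rose by 3.79-fold or more in all 4 lines, and Trib1 rose by 1.19-fold to 1.87-fold. Sesn1, Trib2 and Depdc5 fell in all 4. Tsc1 rose in Myc310, LM1 and LM1-LM, while Sesn3 and Tsc2 passed the threshold as higher in MYAZ16.1e and not in the others. Calls rest on edgeR's quasi-likelihood test across 13400 genes in the 24 libraries of the 4 lines, with p adjusted by the Benjamini-Hochberg method and 0.05 as the threshold. In MYAZ16.1e 9 of the 10 genes were called, against 53.7% of all genes tested. The corresponding counts were 8 in Myc310 (66.8% of all genes), 8 in LM1 (71.1%) and 8 in LM1-LM (72.4%), so the number of calls in the last 3 lines was close to the background and the size of the changes carries more than their number. The median log2 fold change over the 10 genes was 0.19, 0.28, 0.39 and 0.42 in the 4 deprived lines, against 0.00 to -0.01 over all genes tested. Being called higher in all 4 lines applied to 4 of the 10 genes and to 19.3% of all genes, and being called lower in all 4 to 3 of the 10 and to 19% of all genes. In bulk libraries such as these, fewer cells of a type and less RNA per cell cannot be told apart.

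**Figure D1:**
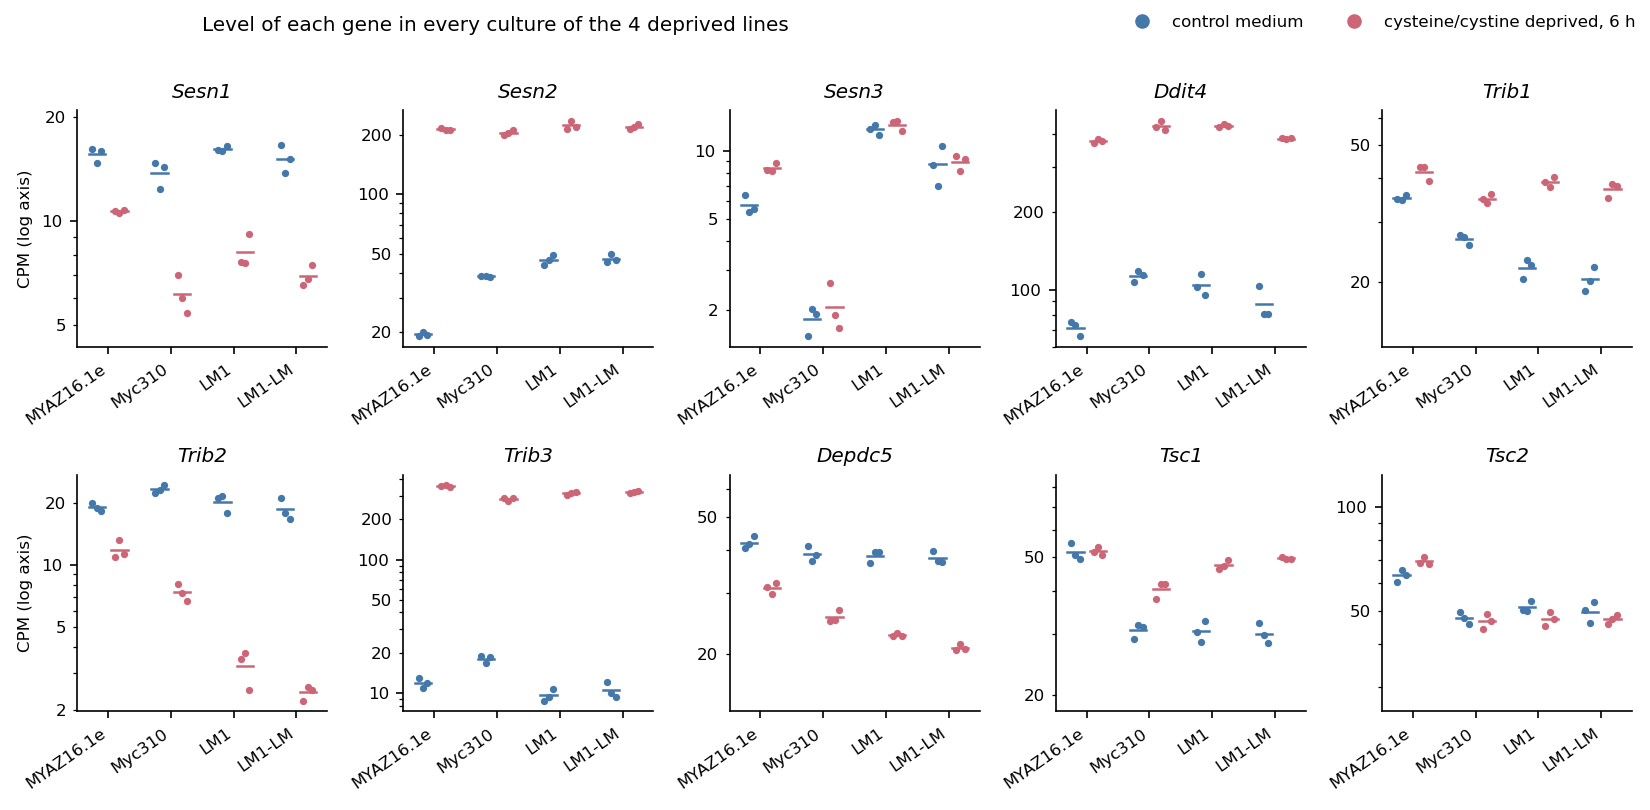
Level of each of the 10 genes in CPM on a log axis in every culture of the 4 deprived lines (MYAZ16.1e, Myc310, LM1, LM1-LM), in control medium (blue) and after 6 h without cysteine and cystine (red); points are cultures and bars group means of 3. Trib3, Sesn2 and Ddit4 sit far above their control cultures in each line, and Trib2 sits lowest in the deprived LM1 and LM1-LM cultures, at 2.22 to 3.75 CPM.

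Trib3, the stress-induced tribbles gene (ENSMUSG00000032715, chr2:152337422-152344032, minus strand), had the largest change of the 10. In MYAZ16.1e its cultures had 12.9, 10.8 and 11.8 CPM in control medium and 359, 360.5 and 348 CPM after deprivation. In Myc310 they had 18.7, 16.7 and 18.4 CPM in control medium and 288, 275 and 292 CPM after deprivation. The deprived Myc310 cultures were thus below those of MYAZ16.1e although their controls were above. In LM1 the cultures had 8.71, 9.35 and 10.6 CPM in control medium and 305, 318 and 323 CPM after deprivation, and in LM1-LM 11.97, 9.89 and 9.33 CPM and 316, 323 and 324 CPM. No deprived culture came near a control culture. For Trib3 the log2 fold change was 4.91 (SE 0.05, edgeR adjusted p = 1.09e-33) in MYAZ16.1e, a 29.96-fold rise. It was 3.98 (SE 0.05, edgeR adjusted p = 1.99e-32) in Myc310, or 15.7-fold. It was 5.08 (SE 0.05, edgeR adjusted p = 4.85e-34) in LM1 and 4.98 (SE 0.05, edgeR adjusted p = 2.55e-34) in LM1-LM, or 33.7-fold and 31.6-fold. Ordered by fold change, Trib3 stood at place 27 from the top of the 13400 genes in MYAZ16.1e and at places 87, 64 and 62 in Myc310, LM1 and LM1-LM. More than 2-fold higher with a call were 3.78%, 6.93%, 9.06% and 9.76% of all genes in these 4 lines.

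Sesn2, the sestrin that senses leucine and answers to ATF4 and NRF2 (ENSMUSG00000028893, chr4:132492032-132510501, minus strand), rose in every line to nearly the same level from unequal starting points. Its MYAZ16.1e cultures had 19.1, 20.2 and 19.4 CPM in control medium and 218, 211 and 212 CPM after deprivation. The Myc310 cultures had 38.7, 38.7 and 38.0 CPM in control medium and 199.8, 204 and 211 CPM after deprivation. Control cultures of Myc310 were thus all above those of MYAZ16.1e, whereas its deprived cultures were all slightly below those of MYAZ16.1e. In LM1 the values were 44.1, 46.2 and 49.2 CPM and 214, 234 and 219.8 CPM, and in LM1-LM 45.4, 49.8 and 46.5 CPM and 215, 219.7 and 226 CPM. The log2 change of Sesn2 was 3.44 (SE 0.04, edgeR adjusted p = 9.49e-32) in MYAZ16.1e, or 10.9-fold. In Myc310 it was 2.40 (SE 0.04, edgeR adjusted p = 2.58e-29), in LM1 2.29 (SE 0.04, edgeR adjusted p = 3.91e-29) and in LM1-LM 2.26 (SE 0.04, edgeR adjusted p = 3.59e-29), which are 5.28-fold, 4.91-fold and 4.78-fold. Same-strand gene models overlap Sesn2 (Gm12981), Sesn1 (9930024M15Rik), Trib2 (Mir6387) and Depdc5 (Gm24003 and Gm43693), and how the authors' counting split such reads is not given in the sources used here.

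Ddit4, which encodes REDD1 and favours the TSC brake (ENSMUSG00000020108, chr10:59949669-59951834, minus strand), was the most abundant of the 10 genes per length. Its MYAZ16.1e cultures had 74.6, 72.7 and 65.95 CPM in control medium and 372, 385 and 378 CPM after deprivation. In Myc310 the cultures had 108, 118 and 114 CPM in control medium and 429, 451 and 416 CPM after deprivation. Both media separated fully in each of these lines. In LM1 the values were 102, 115 and 95.02 CPM and 426, 441 and 429.9 CPM, and in LM1-LM 103, 80.2 and 80.5 CPM and 386, 383 and 388 CPM. Ddit4 changed by a log2 fold of 2.41 (SE 0.06, edgeR adjusted p = 6.03e-24) in MYAZ16.1e and 1.92 (SE 0.06, edgeR adjusted p = 2.28e-22) in Myc310. The values for LM1 and LM1-LM were 2.09 (SE 0.06, edgeR adjusted p = 2.64e-23) and 2.17 (SE 0.06, edgeR adjusted p = 1.13e-23). As a linear fold the rise was 5.32, 3.79, 4.26 and 4.505 in the 4 lines in that order.

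Trib1, an adaptor that brings substrates to Cop1 (ENSMUSG00000032501, chr15:59648350-59657099, plus strand), rose modestly and more in the lung-derived lines. In MYAZ16.1e it had 34.9, 34.7 and 35.7 CPM in control medium and 43.0, 43.3 and 39.4 CPM after deprivation, and in LM1-LM 18.9, 20.1 and 22.11 CPM and 35.05, 38.5 and 38.0 CPM. Control levels of Trib1 were thus higher in MYAZ16.1e than in LM1-LM, and the deprived levels lay closer together. Trib1 changed by a log2 fold of 0.25 (SE 0.05, edgeR adjusted p = 0.000207) in MYAZ16.1e and 0.38 (SE 0.06, edgeR adjusted p = 5.54e-07) in Myc310. In LM1 and LM1-LM the values were 0.86 (SE 0.06, edgeR adjusted p = 2.09e-14) and 0.90 (SE 0.06, edgeR adjusted p = 6.19e-15). Deprived and control cultures did not overlap in any of the 4 lines.

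Trib2, the related adaptor (ENSMUSG00000020601, chr12:15791727-15816922, minus strand), went the other way. MYAZ16.1e cultures had 19.8, 18.8 and 18.2 CPM in control medium and 10.9, 13.1 and 11.3 CPM after deprivation, and Myc310 cultures 22.3, 22.9 and 24.2 CPM and 8.05, 7.32 and 6.72 CPM. In control medium the Myc310 cultures were thus all above those of MYAZ16.1e, and after deprivation all below them. LM1 cultures had 20.9, 21.6 and 17.8 CPM in control medium and 3.53, 3.75 and 2.48 CPM after deprivation, which rest on 76, 82 and 54 counts. LM1-LM cultures had 21.0, 17.9 and 16.7 CPM and 2.22, 2.57 and 2.49 CPM, the latter from 58, 51 and 53 counts. The fall of Trib2 was unequal in size. Its log2 fold change was -0.69 (SE 0.10, edgeR adjusted p = 5.04e-07) in MYAZ16.1e and -1.66 (SE 0.10, edgeR adjusted p = 5.30e-15) in Myc310. It reached -2.59 (SE 0.12, edgeR adjusted p = 3.38e-18) in LM1 and -2.90 (SE 0.13, edgeR adjusted p = 6.29e-19) in LM1-LM. These are levels lower by 1.61-fold, 3.17-fold, 6.02-fold and 7.47-fold. In LM1-LM Trib2 stood at place 13274 of 13400 from the top, and genes called more than 2-fold lower made up 0.821%, 5.44%, 9.21% and 10.3% of all genes in the 4 deprived lines.

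Sesn1, the sestrin known as a p53 target (ENSMUSG00000038332, chr10:41809935-41908424, plus strand), fell in each line. Its MYAZ16.1e cultures had 16.2, 14.8 and 15.9 CPM in control medium and 10.7, 10.6 and 10.8 CPM after deprivation, and the Myc310 cultures 14.7, 12.4 and 14.4 CPM and 7.01, 6.02 and 5.45 CPM. Control levels of these lines lay close together, and the deprived Myc310 cultures were all below the deprived MYAZ16.1e cultures. LM1 cultures had 16.14, 16.0 and 16.5 CPM and 7.62, 7.58 and 9.20 CPM, and LM1-LM cultures 16.7, 13.8 and 15.1 CPM and 6.54, 6.81 and 7.47 CPM. Sesn1 changed by a log2 fold of -0.55 (SE 0.09, edgeR adjusted p = 4.62e-06) in MYAZ16.1e and -1.18 (SE 0.10, edgeR adjusted p = 5.43e-12) in Myc310. The changes were -0.96 (SE 0.09, edgeR adjusted p = 1.61e-10) in LM1 and -1.09 (SE 0.10, edgeR adjusted p = 1.18e-11) in LM1-LM. Sesn3, the FOXO-linked sestrin (ENSMUSG00000032009, chr9:14275067-14333101, plus strand), had 6.36, 5.399 and 5.57 CPM in control medium and 8.19, 8.13 and 8.83 CPM after deprivation in MYAZ16.1e. That rise of 0.54 (SE 0.13, edgeR adjusted p = 0.000664) on the log2 scale was the one call for Sesn3. In Myc310, where its level was lowest, the cultures had 1.54, 2.02 and 1.92 CPM and 2.62, 1.91 and 1.67 CPM. There the log2 change was 0.17 (SE 0.19, edgeR adjusted p = 0.441) with a 95% interval of -0.22 to 0.57. In LM1 and LM1-LM it was 0.11 (SE 0.11, edgeR adjusted p = 0.416) and 0.08 (SE 0.12, edgeR adjusted p = 0.545), and the cultures of both media overlapped.

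Depdc5, the GATOR1 subunit that switches off the Rag GTPases (ENSMUSG00000037426, chr5:32863701-32994236, plus strand), fell in each line. MYAZ16.1e cultures had 40.5, 41.5 and 43.9 CPM in control medium and 31.3, 29.8 and 32.2 CPM after deprivation, and LM1-LM cultures 39.8, 37.1 and 36.9 CPM and 20.6, 21.3 and 20.7 CPM. Control levels of these lines were near each other and both sets of deprived cultures were clearly lower. The log2 change of Depdc5 was -0.44 (SE 0.05, edgeR adjusted p = 7.26e-09) in MYAZ16.1e and -0.62 (SE 0.05, edgeR adjusted p = 4.55e-12) in Myc310. It came to -0.73 (SE 0.05, edgeR adjusted p = 1.68e-13) in LM1 and -0.83 (SE 0.05, edgeR adjusted p = 7.50e-15) in LM1-LM. Control and deprived cultures did not overlap in any of the 4 lines.

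Tsc1, the scaffold of the TSC complex (ENSMUSG00000026812, chr2:28641228-28691167, plus strand), had 55.0, 50.8 and 49.3 CPM in control medium and 51.7, 53.6 and 50.9 CPM after deprivation in MYAZ16.1e, and the 2 media overlapped. Its log2 change there was 0.01 (SE 0.05, edgeR adjusted p = 0.929) with a 95% interval of -0.10 to 0.11. Myc310 cultures had 29.1, 31.9 and 31.4 CPM and 37.9, 41.7 and 41.8 CPM, and LM1 cultures 30.4, 28.4 and 32.8 CPM and 46.4, 47.1 and 49.2 CPM. LM1-LM cultures had 32.3, 29.7 and 28.3 CPM and 49.99, 49.4 and 49.5 CPM. In these 3 lines every deprived culture was above every control culture, and the deprived LM1 and LM1-LM cultures came close to the range of MYAZ16.1e. The log2 change of Tsc1 was 0.38 (SE 0.06, edgeR adjusted p = 6.60e-07) in Myc310, 0.68 (SE 0.06, edgeR adjusted p = 4.96e-12) in LM1 and 0.76 (SE 0.06, edgeR adjusted p = 2.09e-13) in LM1-LM. Tsc2, the GTPase-activating partner, changed little (ENSMUSG00000002496, chr17:24595816-24632630, minus strand). It had 60.6, 65.7 and 63.6 CPM in control medium and 68.9, 71.5 and 68.4 CPM after deprivation in MYAZ16.1e, a log2 change of 0.13 (SE 0.05, edgeR adjusted p = 0.022), and the call was lost when any 1 of the 3 replicate numbers was left out, with adjusted p = 0.132, 0.0535 and 0.0621. In Myc310, LM1 and LM1-LM the log2 change of Tsc2 was -0.04, -0.07 and -0.04, with 95% intervals of -0.15 to 0.06, -0.18 to 0.03 and -0.14 to 0.07. With upper-quartile scaling it passed the threshold in LM1 (-0.15, edgeR adjusted p = 0.00895) and LM1-LM (-0.12, edgeR adjusted p = 0.0374), and in LM1 also without replicate 2 (-0.14, edgeR adjusted p = 0.0444). Tsc2 overlaps Pkd1 on the opposite strand, and the strand setting of the counting is not given in the sources used here.

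**Figure D2:**
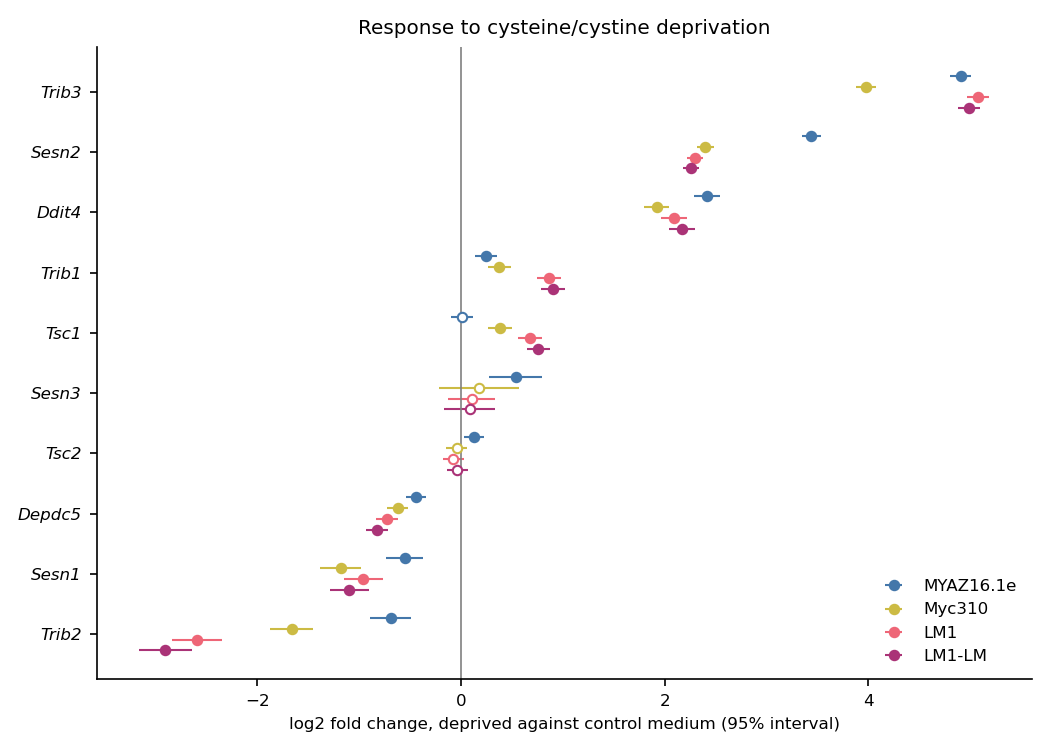
Log2 fold change of each of the 10 genes after 6 h without cysteine and cystine against control medium, with 95% intervals, for the 4 deprived lines (3 cultures against 3); filled points passed an adjusted p of 0.05. Trib3 lies between 3.98 and 5.08, and Trib2 runs from -0.69 in MYAZ16.1e to -2.90 in LM1-LM.

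Levels between genes were compared per length, as CPM per kilobase of the exons of a gene (RPKM, with lengths from GENCODE M21). In MYAZ16.1e in control medium Ddit4 had a mean of 40.5 RPKM, far above Tsc2 (6.58), Sesn2 (5.64), Trib1 (5.62) and Trib3 (5.58), and Sesn3 was lowest (0.378). After deprivation the order was Ddit4 at 216 RPKM, Trib3 at 168 and Sesn2 at 61.4, with none of the other 7 genes above 7.23. The sestrin transcripts thus became almost entirely Sesn2. Its share of the summed sestrin RPKM in MYAZ16.1e went from 56.7% ± 1.90 (SD, n = 3) to 95% ± 0.113, and that of Sesn1 from 39.5% to 4.15%. In Myc310 the share of Sesn2 went from 75.5% ± 1.63 to 97.2% ± 0.440. In LM1 it went from 73.2% to 95.7% and in LM1-LM from 75.6% to 96.5%. The shares of the other sestrins still differed after deprivation, and Sesn3 held 0.224% in Myc310 and 1.27% in LM1.

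Among the tribbles the same held for Trib3. Its share of the summed tribbles RPKM went from 35.8% ± 1.68 to 94.7% ± 0.200 in MYAZ16.1e and from 46.7% to 94.8% in Myc310. For LM1 the shares were 35.5% and 95.5%, and for LM1-LM 39.2% and 95.9%. Trib2 held 28.1%, 29.6%, 36.7% and 34.3% of the tribbles RPKM in control medium. After deprivation its share was 1.53%, 1.202%, 0.484% and 0.355%. The summed sestrin level rose from 9.94 ± 0.0573 to 64.7 ± 1.00 RPKM in MYAZ16.1e and from 18.0 ± 0.250 to 65.7 ± 1.63 RPKM in LM1-LM. The summed tribbles level went from 15.6 ± 0.609 to 177 ± 3.59 RPKM and from 12.4 ± 0.941 to 158 ± 2.50 RPKM in the same lines. These shares and sums are descriptions and were not tested.

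**Figure D3:**
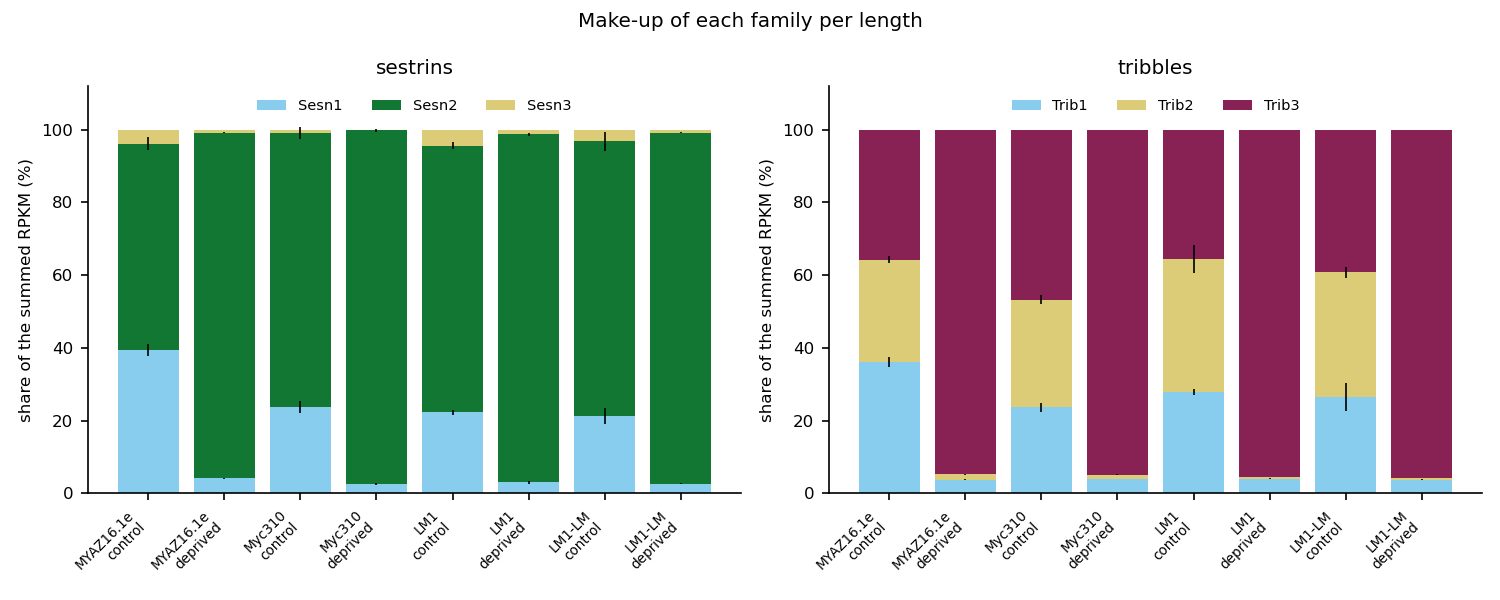
Share of the summed RPKM held by each sestrin (left) and each tribbles gene (right) in the 4 lines in control medium and after deprivation; bars are means of 3 cultures and error bars their SD. Sesn2 holds 95% to 97.2% and Trib3 94.7% to 95.9% in the deprived cultures.

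Whether the lines respond to different degrees was tested as the difference of the log2 fold changes within the same fit. Compared with MYAZ16.1e, the response of Sesn2 was smaller, with differences of -1.04 (SE 0.06, edgeR adjusted p = 5.81e-14) in Myc310, -1.15 (SE 0.06, edgeR adjusted p = 1.04e-15) in LM1 and -1.18 (SE 0.06, edgeR adjusted p = 2.71e-16) in LM1-LM. Trib2 fell further than in MYAZ16.1e, with differences of -0.97 (SE 0.14, edgeR adjusted p = 2.02e-06) in Myc310, -1.90 (SE 0.16, edgeR adjusted p = 1.82e-11) in LM1 and -2.21 (SE 0.17, edgeR adjusted p = 1.22e-12) in LM1-LM. Tsc1 rose more in all 3, by 0.37, 0.67 and 0.75 (edgeR adjusted p = 0.000214, 1.23e-08 and 8.56e-10). The response of Trib3 was smaller in Myc310, with a difference of -0.93 (SE 0.08, edgeR adjusted p = 1.502e-10), and its difference was 0.17 in LM1 and 0.08 in LM1-LM with 95% intervals of -0.02 to 0.36 and -0.10 to 0.26. In all, 8, 9 and 9 of the 10 genes differed in response from MYAZ16.1e in Myc310, LM1 and LM1-LM, against 40.3%, 52.2% and 54.8% of all genes tested. The 3 comparisons share the 6 MYAZ16.1e libraries and are not independent. The smaller of these differences were less stable. Those of Tsc2 and Depdc5 in Myc310 lost their call with RLE scaling, without a filter, in DESeq2 and with any 1 replicate number left out. Without replicate 1 they were -0.084 for Tsc2 and -0.091 for Depdc5 (edgeR adjusted p = 0.486 and 0.459). The Tsc2 difference was lost in LM1 without replicate 1 or 3 and in LM1-LM also without a filter. The Ddit4 difference in LM1-LM lost its call in DESeq2 (adjusted p = 0.0542) and in edgeR without replicate 1 (adjusted p = 0.109). For Sesn1 in LM1 the call was lost without replicate 1 or 2 (edgeR adjusted p = 0.0556 and 0.0948). The Sesn3 difference was lost without replicate 2 or 3, at an edgeR adjusted p of 0.12 and 0.152 in LM1 and of 0.0512 and 0.35 in LM1-LM, where it went from -0.45 to -0.25 without replicate 3.

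Between Myc310 and LM1, a line that was grown from it in the lung, 4 of the 10 responses differed, against 24.5% of all genes. The rise of Trib3 was larger in LM1 by 1.10 (SE 0.09, edgeR adjusted p = 1.205e-10) and that of Trib1 by 0.48 (SE 0.08, edgeR adjusted p = 3.06e-05). Tsc1 rose more in LM1 by 0.29 (SE 0.08, edgeR adjusted p = 0.00674), a call lost without replicate 2 (0.24, edgeR adjusted p = 0.144). Trib2 fell further, with a difference of -0.93 (SE 0.17, edgeR adjusted p = 8.66e-05). Sesn2 and Ddit4 had differences of -0.11 and 0.17, with 95% intervals of -0.22 to 0.01 and -0.01 to 0.34; the first passed with upper-quartile scaling (edgeR adjusted p = 0.0479) and the second without a filter (edgeR adjusted p = 0.000834). Between LM1-LM and LM1 none of the 10 responses passed the threshold in edgeR, against 0.769% of all genes, and 0 of the 10 had an unadjusted p under 0.05, where 1514 of the 13400 genes did; DESeq2 likewise called 0 of the 10, with 0 at an unadjusted p under 0.05. The largest of these differences was that of Trib2, -0.31 with a 95% interval of -0.70 to 0.08.

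The same fit gives the levels of the 4 lines against MYAZ16.1e within each medium; these level comparisons were chosen after the values had been seen. In control medium 8 of the 10 genes differed from MYAZ16.1e in each of Myc310, LM1 and LM1-LM (70.1%, 70.7% and 70.7% of all genes), and after deprivation 9, 8 and 7 did (72.3%, 76.1% and 76.9%). Sesn2 in control medium was higher by 0.99 (SE 0.05, edgeR adjusted p = 1.42e-16) in Myc310, 1.24 (SE 0.05, edgeR adjusted p = 3.92e-19) in LM1 and 1.26 (SE 0.05, edgeR adjusted p = 1.70e-19) in LM1-LM on the log2 scale. After deprivation the corresponding values for Sesn2 were -0.05, 0.09 and 0.08 (edgeR adjusted p = 0.159, 0.0119 and 0.034). These small values moved with the setting. The calls for LM1 and LM1-LM were lost with RLE scaling, with at least 10 counts in every library, in DESeq2 and without replicate 2, and that for LM1-LM also without replicate 3 (edgeR adjusted p = 0.165). With upper-quartile scaling, which moved the median of all genes in the LM1-LM comparison by -0.11, the values were -0.11, 0.001 and -0.026 (edgeR adjusted p = 0.00512, 0.98 and 0.475), so that Myc310 passed the threshold as lower. The mean level of Sesn2 after deprivation was 214 ± 3.502 CPM in MYAZ16.1e and 205 ± 5.50 CPM in Myc310. LM1 had 223 ± 10.4 CPM and LM1-LM 220.1 ± 5.26 CPM (SD, n = 3).

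Tsc1 also started from different levels. In control medium it was lower than in MYAZ16.1e, with differences of -0.73, -0.77 and -0.78 on the log2 scale in Myc310, LM1 and LM1-LM (edgeR adjusted p = 6.72e-13, 3.08e-13 and 1.33e-13). After deprivation it was still lower in Myc310, with a difference of -0.36 (SE 0.05, edgeR adjusted p = 7.55e-07), and the values for LM1 and LM1-LM were -0.10 (SE 0.05, edgeR adjusted p = 0.0959) and -0.03 (SE 0.05, edgeR adjusted p = 0.575). The LM1 value was past the threshold under 4 alternatives, at -0.12 with RLE scaling, -0.19 with upper-quartile scaling, -0.13 with at least 10 counts in every library and -0.12 in DESeq2 (adjusted p = 0.0352, 0.00182, 0.0223 and 0.0437), and that of LM1-LM with upper-quartile scaling, at -0.14 (edgeR adjusted p = 0.0189). Trib2 showed the opposite order. Its control level differed from that of MYAZ16.1e by 0.30, 0.08 and -0.04, of which the first passed the threshold. After deprivation Trib2 was lower in all 3 lines, with differences of -0.67, -1.82 and -2.25 (edgeR adjusted p = 3.23e-06, 7.68e-14 and 1.53e-15). For Ddit4 the difference from MYAZ16.1e was 0.69, 0.55 and 0.30 in control medium and 0.20, 0.22 and 0.06 after deprivation, and all but the last of these 6 passed the threshold; without a filter the last did too (0.072, edgeR adjusted p = 0.0287). Tsc2 was lower than in MYAZ16.1e in all 3 lines in both media, with log2 differences of -0.32 to -0.39 in control medium and of -0.52 to -0.57 after deprivation.

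In control medium the 10 lines without NDI1 could be ordered by the mean of their 3 cultures, and the genes differed widely in how far the lines spread. Sesn3 spread most, over 18.3-fold, followed by Sesn1 over 4.33-fold, Sesn2 over 3.99-fold, Trib1 over 2.63-fold and Ddit4 over 2.27-fold. Trib2 spread over 2.07-fold, Trib3 over 1.92-fold, Tsc1 over 1.72-fold, Tsc2 over 1.56-fold and Depdc5 over 1.24-fold. Sesn2 was lowest in the MYAZ lines, with 12.8 ± 0.467 CPM in MYAZ12.3i, 19.6 ± 0.542 in MYAZ16.1e and 20.5 ± 1.69 in MYAZ6.6g (SD, n = 3). Next came Myc310 with 38.4 ± 0.390, and then LM3-LM (43.4), LM2 (44.0), LM3 (45.4), LM1 (46.5), LM1-LM (47.3) and LM2-LM (51.1). Of the 9 pairs of neighbours in this order, the cultures of 5 overlapped. Sesn2 held 25.6% to 56.7% of the sestrin RPKM in the MYAZ lines and 70.6% to 79.5% in the other 7. These shares also depend on Sesn1 and Sesn3. At similar levels of Sesn2, its share was 56.7% in MYAZ16.1e and 35.8% in MYAZ6.6g.

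Sesn1 was highest in MYAZ6.6g (34.2 ± 0.420 CPM) and MYAZ12.3i (34.0 ± 1.06 CPM), whereas MYAZ16.1e (15.6 ± 0.743 CPM) lay among the other lines, down to LM2-LM with 7.91 ± 1.00 CPM. Sesn3 ran from 1.83 ± 0.255 CPM in Myc310 to 33.5 ± 0.530 CPM in MYAZ12.3i. The LM lines, which were derived from Myc310, had 12.4, 18.0 and 20.2 CPM of Sesn3, all above their parent. Ddit4 was lowest in MYAZ16.1e (71.1 ± 4.54 CPM) and highest in LM2 (161 ± 10.6 CPM), whose cultures overlapped those of MYAZ6.6g (mean 157 CPM). Trib1 was highest in the MYAZ lines, from 35.1 CPM in MYAZ16.1e to 53.6 CPM in MYAZ12.3i, and lowest in LM1-LM (20.4 CPM), whose cultures overlapped those of LM1. Tsc1 likewise had 51.7, 45.9 and 44.9 CPM in the MYAZ lines and between 30.1 CPM in LM1-LM and 33.8 CPM in LM2-LM in the other 7. Trib2, Trib3 and Tsc2 overlapped between neighbours in 7, 8 and 8 of 9 pairs, and Depdc5 in 9 of 9. In a test for any difference among the 10 lines all 10 genes passed the threshold, as did 92.6% of all 13795 genes tested. Within the 3 MYAZ lines 9 passed (74% of all genes), all but Depdc5, and within the 3 LM-LM lines 9 as well (68.2%), again all but Depdc5. Within the 3 LM lines 7 passed (61.9%), and Sesn2, Depdc5 and Tsc1 did not. With 1 replicate number left out, the calls of Tsc2 among the LM lines and of Tsc1 among the LM-LM lines could be lost, and Depdc5 could pass among the MYAZ and among the LM-LM lines.

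**Figure D4:**
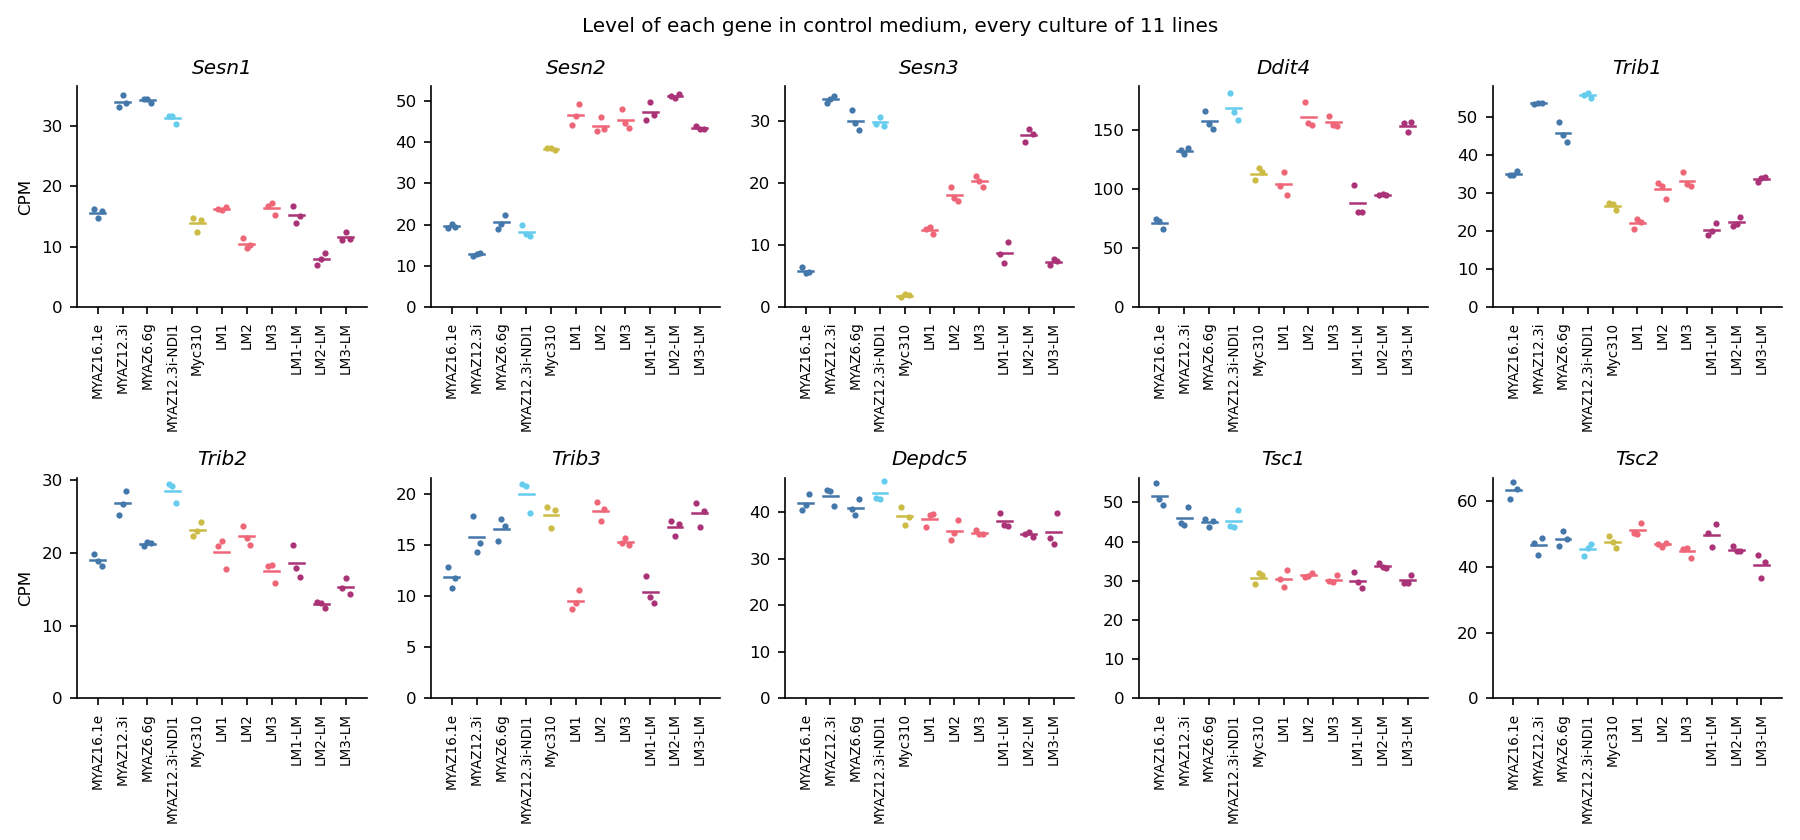
Level in CPM of each of the 10 genes in control medium in every culture of 11 lines; points are cultures, bars are means of 3, and colours mark the MYAZ, NDI1, Myc310, LM and LM-LM lines. Sesn2 reaches at most 22.3 CPM in the cultures of the 3 MYAZ lines without NDI1 and at least 38.0 CPM in those of the 7 lines of the other subtypes, and Tsc1 shows the opposite split.

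The subtypes were compared with MYAZ in a model that held subtype only, over the 30 control libraries. Sesn2 was higher than in MYAZ by a log2 fold of 1.12 (SE 0.12, edgeR adjusted p = 3.18e-09) in Myc310, 1.36 (SE 0.09, edgeR adjusted p = 5.25e-14) in LM and 1.40 (SE 0.09, edgeR adjusted p = 2.40e-14) in LM-LM. Tsc1 was lower, with differences of -0.63 (SE 0.07, edgeR adjusted p = 5.87e-09), -0.63 (SE 0.05, edgeR adjusted p = 9.58e-13) and -0.62 (SE 0.05, edgeR adjusted p = 1.19e-12). For both genes no culture of the other 3 subtypes overlapped a MYAZ culture. The mean over lines was 17.6 ± 4.21 CPM of Sesn2 in MYAZ, 45.3 ± 1.29 in LM and 47.3 ± 3.88 in LM-LM (SD over 3 lines), and 38.4 CPM in the single Myc310 line. For Tsc1 it was 47.5 ± 3.66, 30.8 ± 0.563 and 31.4 ± 2.10 CPM, and 30.8 CPM in Myc310. Sesn1 was lower in all 3 subtypes, with differences of -1.02, -0.96 and -1.29 on the log2 scale, and so was Trib1, with -0.75, -0.64 and -0.83. Sesn3 was lower in Myc310, with a difference of -3.67 (SE 0.68, edgeR adjusted p = 5.17e-05), a call lost with counts summed per line (edgeR adjusted p = 0.101) and in limma with line as a random effect (-3.32, adjusted p = 0.129). In all, 5, 5 and 7 of the 10 genes were called in Myc310, LM and LM-LM, against 50.9%, 60.8% and 62.8% of all genes. Leaving out MYAZ16.1e added Sesn3 (-0.91, edgeR adjusted p = 0.00791) and Trib2 (-0.27, edgeR adjusted p = 0.027) in LM. In LM-LM it added Sesn3 (-1.15, edgeR adjusted p = 0.00112) and Ddit4 (-0.39, edgeR adjusted p = 0.0339), and Tsc2 was lost (edgeR adjusted p = 0.131). Ddit4 was called higher in LM without MYAZ6.6g (0.47, edgeR adjusted p = 0.0424), opposite in sign to LM-LM, where it was called lower without LM3-LM as well (-0.42, edgeR adjusted p = 0.0474). Trib2 was also called in LM without LM2, and Sesn3 in LM-LM without LM2-LM (-1.54, edgeR adjusted p = 0.000603). Tsc2 in LM was called lower with RLE scaling, upper-quartile scaling, at least 10 counts in every library and DESeq2 (adjusted p = 0.0474, 0.0472, 0.0355 and 0.0423), and without MYAZ12.3i, MYAZ6.6g or LM1. Over the lines left out in turn the number called was 5 in Myc310, 5 to 7 in LM and 7 to 8 in LM-LM. Median log2 differences over the 10 genes were -0.13, -0.18 and -0.39, against -0.02, 0.00 and -0.01 over all genes.

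Because this model counts the 3 cultures of a line as independent, the comparison was repeated with the counts of each line summed. Then 2, 2 and 4 of the 10 genes were called, Sesn2 and Tsc1 in each comparison and also Sesn1 and Trib1 in LM-LM, against 8.92%, 23.6% and 26.4% of all 16017 genes tested. The adjusted p from edgeR was 0.0172, 0.000996 and 0.000749 for Sesn2, and 0.0234, 0.00206 and 0.00222 for Tsc1. Marker sums of the leukocyte and endothelial lists differed between MYAZ and the other subtypes, and those of the fibroblast list overlapped. The summed leukocyte list, nearly all of it Cd68, had 4.90 to 5.92 CPM in the MYAZ lines and 9.70 to 17.7 CPM in the other 7, while the pan-leukocyte gene Ptprc had at most 5 counts in any library. The endothelial list had 4.26 to 6.88 CPM in the MYAZ lines and 0.257 to 0.911 CPM in the other 7. Of its genes Kdr reached 6.36 CPM in its highest library, and no other reached more than 0.718 CPM. The fibroblast list ranged from 9.13 to 95.5 CPM in the MYAZ lines and from 1.87 to 217 CPM in the others. With deprivation the fibroblast sum went from 60.6 to 28.2 CPM in LM1-LM and from 9.13 to 11.2 CPM in MYAZ16.1e. Whether these transcripts came from other cells or from the tumour lines themselves was not tested, and neither was their part in the results.

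In the MYAZ12.3i line that carries NDI1, compared with its parent in a fit of the 6 libraries, 4 of the 10 genes were called, against 17.4% of 12841 genes. Sesn2 had 12.29, 12.9 and 13.2 CPM in the parent and 19.8, 17.6 and 17.1 CPM in the NDI1 line. All NDI1 cultures were above all parent cultures, with a log2 change of 0.50 (SE 0.08, edgeR adjusted p = 0.000523). Ddit4 rose from 133, 129.7 and 134 to 182, 165 and 159 CPM, by 0.34 (SE 0.04, edgeR adjusted p = 0.000104). Trib3 had 17.9, 14.3 and 15.2 CPM and 21.0, 20.8 and 18.2 CPM and rose by 0.33 (SE 0.09, edgeR adjusted p = 0.0169), and this call was lost without replicate 2. Sesn3 was lower, with a log2 change of -0.17 (SE 0.05, edgeR adjusted p = 0.0266), a call lost in DESeq2, with all 33 control libraries and when any 1 replicate number was left out. Trib1, Trib2, Depdc5, Tsc1, Tsc2 and Sesn1 did not pass the threshold. The changes of Sesn2, Ddit4 and Trib3 were small beside those after deprivation.

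The wider pathway was described by lists of its other genes. These lists were chosen with earlier results of these data known, so their counts are descriptions and not tests of a regulator. Over all genes tested, 26.6%, 32.8%, 35.8% and 36.5% were called higher in the 4 deprived lines and 27.1%, 33.9%, 35.3% and 35.9% lower. Among the regulators of the 10 genes, Atf4 mRNA rose by a log2 fold of 1.65, 2.15, 2.52 and 2.61 across the 4 deprived lines, and the C/EBP family genes Ddit3, which encodes CHOP, by 3.53, 4.61, 4.91 and 4.75 and Cebpb by 1.06, 1.28, 1.68 and 1.71. Hif1a, the oxygen-regulated factor, rose by 0.80, 1.06, 1.29 and 1.38. Over the list of 11 regulators the number called higher was 8, 8, 8 and 8 and lower 3, 2, 2 and 2 in the same order, with medians of 0.69, 0.53, 0.87 and 0.93. The ATF4 targets rose together. Of 14 tested, 14, 14, 14 and 13 were higher and none lower in the 4 lines, with medians of 3.36, 2.83, 3.62 and 3.64 against 0.00 to -0.01 over all genes; the gene not called in LM1-LM was Stc2, named here after its values were seen. Chac1, which degrades glutathione, rose by 5.94, 5.81, 6.41 and 6.31, and Asns, asparagine synthetase, by 2.17, 2.38, 2.60 and 2.53. Aldh1l2, a mitochondrial folate enzyme, rose by 3.95, 4.39, 4.60 and 4.48, and Nupr1, a stress-induced chromatin protein, by 3.30, 3.38, 3.92 and 4.09. Ddit3 stands in both of these lists.

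The genes that pass the signal on to mTORC1 did not move one way. In the GATOR and Rag list 24 genes were tested, and the number called higher was 6, 9, 11 and 11 and lower 8, 9, 9 and 8, with medians between -0.06 and 0.09. Itfg2, a subunit of the KICSTOR complex that anchors GATOR1, rose by 0.72, 1.66, 1.91 and 2.19, and Fnip1, a partner of folliculin, by 0.28, 0.80, 1.30 and 1.21. Nprl3, a partner of Depdc5 in GATOR1, rose by 0.37, 0.71, 0.93 and 0.94, opposite to Depdc5. Wdr24 of GATOR2 fell, with log2 changes of -0.20, -0.79, -0.86 and -0.96. Among 17 genes of the mTOR complexes and their outputs, the number called higher was 8, 6, 9 and 9 and lower 4, 8, 8 and 8 (medians 0.11, -0.01, 0.15 and 0.12). Eif4ebp1, the translation repressor that mTORC1 inactivates, rose by 1.26, 1.47, 1.69 and 1.57, while its paralogue Eif4ebp2 changed by -0.49, -0.84, -0.89 and -0.96. Rheb, the GTPase on which Tsc2 acts, rose by 0.83, 1.00, 1.16 and 1.15.

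Of 21 tested genes of PI3K and AKT signalling, the number called higher was 6, 6, 7 and 8 and lower 6, 8, 9 and 11, with medians from -0.15 to 0.04. Akt1 changed by -0.47, -0.71, -0.78 and -0.76 and Pik3r2, a regulatory PI3K subunit, by -0.11, -0.72, -1.38 and -1.71, while Gsk3b, a kinase that AKT inhibits, rose by 0.40, 0.78, 0.99 and 1.02. Of 10 tested AMPK and LKB1 genes, the number called higher was 2, 4, 5 and 5 and lower 3, 3, 4 and 4, with medians of 0.05, 0.07, -0.06 and -0.08. Prkag2, an AMPK subunit, changed by -0.45, -1.16, -1.88 and -1.83, Camkk2, an upstream kinase, by -0.42, -0.73, -1.22 and -1.46, and Cab39, a partner of LKB1, by 0.48, 0.74, 0.92 and 0.95. All values named for Prkag2, Camkk2 and Cab39 passed the threshold.

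**Figure D5:**
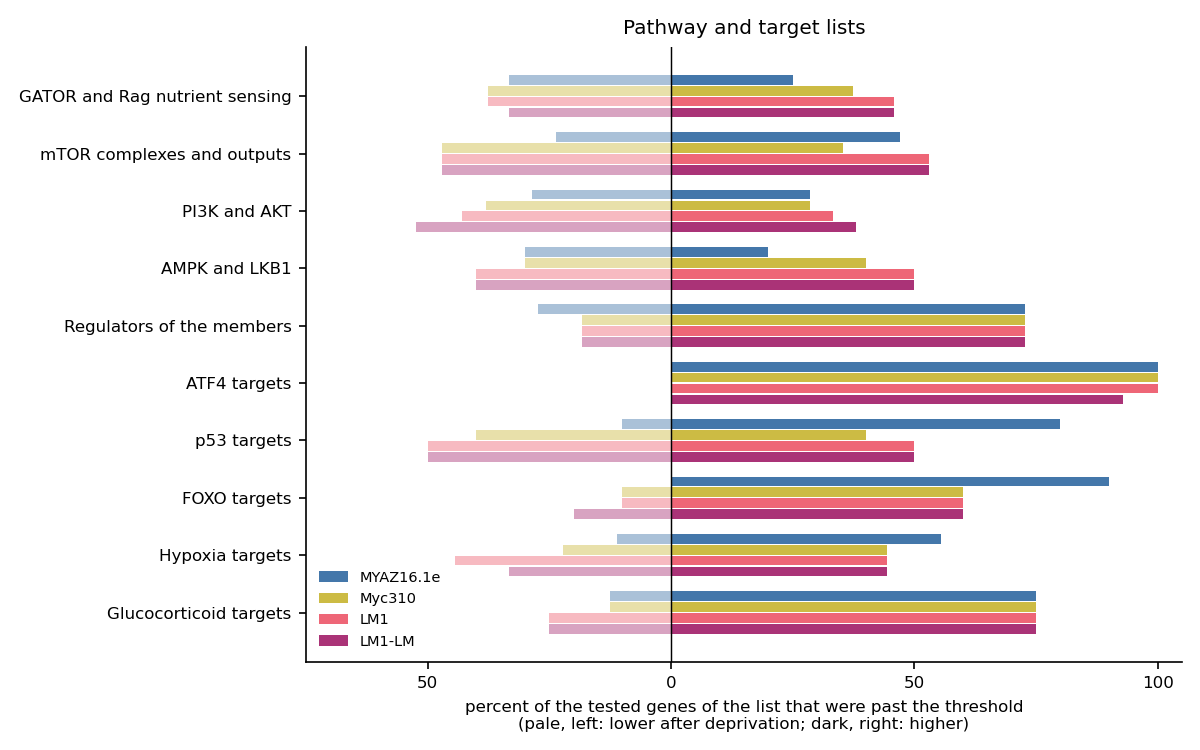
Percent of the tested genes of each list that passed an adjusted p of 0.05 as higher (right, full colour) or lower (left, pale) after deprivation, for each of the 4 deprived lines. The ATF4 targets lie almost wholly on the right, while the GATOR, mTOR, PI3K and AMPK lists are split.

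Among the targets of other regulators of the 10 genes, the FOXO and glucocorticoid lists held more higher than lower calls in all 4 deprived lines, while the p53 list did so in MYAZ16.1e and was evenly split in the other 3. Of 10 p53 targets, the number called higher was 8, 4, 5 and 5 and lower 1, 4, 5 and 5 in the 4 deprived lines, with medians of 0.83, -0.02, 0.13 and 0.20. Bbc3, which encodes PUMA, rose by 1.80, 1.497, 1.70 and 1.74 and the cell cycle inhibitor Cdkn1a by 1.70, 1.23, 1.64 and 1.64. Of 10 FOXO targets, the number called higher was 9, 6, 6 and 6 and lower 0, 1, 1 and 2, with medians of 0.42, 0.36, 0.51 and 1.00, and Bcl6, a transcriptional repressor, rose by 1.25, 1.60, 1.83 and 1.93. Of 9 tested hypoxia targets, the number called higher was 5, 4, 4 and 4 and lower 1, 2, 4 and 3, with medians of 0.10, 0.08, -0.01 and -0.09. Ndrg1 and Vegfa rose by 2.18, 3.27, 4.11 and 3.95 and by 1.95, 2.71, 2.70 and 2.70, whereas the oxygen-sensing hydroxylase Egln3 changed by -0.55, -0.92, -1.52 and -1.69. Of 8 glucocorticoid targets, the number called higher was 6, 6, 6 and 6 and lower 1, 1, 2 and 2, with medians of 0.54, 0.98, 1.27 and 1.29, and Dusp1, a MAP kinase phosphatase, rose by 0.88, 1.81, 2.21 and 2.30.

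Between subtypes in control medium the p53 targets moved together instead. Over all genes tested, 23.8%, 30.3% and 30.5% were called higher than in MYAZ and 27.1%, 30.5% and 32.3% lower, with the comparisons of Myc310, LM and LM-LM given in that order. All 10 were higher in each of the 3 comparisons with MYAZ, with medians of 1.34, 1.37 and 1.44 against -0.02, 0.00 and -0.01 over all genes. Ccng1 was higher by 2.47, 2.47 and 2.58, and Cdkn1a by 1.76, 2.58 and 2.63. With counts summed per line, a list count added after the values had been seen, 8, 9 and 9 of the 10 were called higher and none lower, with medians of 1.36, 1.39 and 1.47. Sesn1, a known p53 target and not in that list, had negative differences in the same comparisons, of which the one in LM-LM was called with summed counts (edgeR adjusted p = 0.265, 0.0849 and 0.0297). The 14 ATF4 targets were split in control medium, where 5, 5 and 5 were called higher and 4, 4 and 6 lower. Cth, an enzyme of transsulfuration, was higher by 1.51, 0.92 and 1.07. Of the 10 FOXO targets 2, 2 and 2 were called higher and 6, 6 and 8 lower, and of the 11 regulators 2, 2 and 2 were called higher and 8, 8 and 8 lower. With summed counts the ATF4 targets had 1, 3 and 3 higher and 0, 3 and 3 lower calls, the FOXO targets 1, 2 and 2 higher and 1, 4 and 4 lower, and the regulators 0, 2 and 2 higher and 0, 2 and 2 lower; the Myc310 calls of Cebpb and Akt1 were among those lost (edgeR adjusted p = 0.0807 and 0.142). Among the regulators Cebpb was lower, with differences of -0.77, -0.81 and -1.01. Of the 21 PI3K and AKT genes 5, 5 and 6 were called higher and 6, 7 and 9 lower, and of the 17 genes of the mTOR complexes 3, 4 and 5 were called higher and 7, 8 and 8 lower. With summed counts the PI3K and AKT genes had 2, 4 and 4 higher and 3, 4 and 5 lower calls. The mTOR genes then had 0, 0 and 2 higher and 1, 5 and 5 lower calls. Akt1 was higher by 0.54, 0.60 and 0.74, and Akt1s1, the mTORC1 inhibitor PRAS40, was lower, with differences of -0.81, -0.83 and -0.72. Of 9 tested hypoxia targets 5, 7 and 7 were called higher and 2, 1 and 1 lower, with medians of 0.35, 0.68 and 0.65. With summed counts, where 10 were tested, 3, 5 and 7 were higher and 0, 1 and 1 lower. Of 8 glucocorticoid targets 1, 1 and 0 were called higher and 4, 5 and 5 lower, and with summed counts 0, 0 and 0 higher and 0, 1 and 1 lower. The 3 comparisons share the 9 MYAZ libraries.

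The pattern of each gene over the 15 group means of log2 CPM was compared with that of all other genes by Pearson's r, as a description of 15 points of which 4 are deprived groups. Most like Trib3 were Gpt2, an alanine aminotransferase (r = 0.986), Arid5a (0.984) and D6Wsu163e (0.983). Most like Sesn2 were Ric8a (0.972), Nkiras2 (0.972) and Zfp639 (0.971), and most like Ddit4 were Marchf6 (0.963), Herpud1 (0.954) and Osgin1 (0.954). For Trib1 they were Stx6 (0.946), Rnf19a (0.943) and Pcmtd2 (0.936). Trib2 had Depdc5 among its 3 nearest genes (0.9704), beside Pgm2l1 (0.972) and Adgra3 (0.969), and Depdc5 itself was nearest to Fscn1 (0.986), Cdca7 (0.984) and Nanp (0.981). Tsc1 was nearest to Ppig (0.989), Aurka (0.988) and Katnbl1 (0.986), whereas Tsc2 was nearest to Slc27a4 (0.933), Snapc4 (0.913) and Trub2 (0.911). Sesn1 was nearest to Mpv17 (0.966), R3hdm4 (0.947) and Ppia (0.938), and Sesn3 to Atrnl1 (0.906), Serpinh1 (0.884) and Cpt1a (0.851). The 2 genes of the TSC complex thus shared none of their 3 nearest genes.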

How the data were processed

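Polyadenylated mRNA of 45 cultures was sequenced from both ends on a NovaSeq with a directional kit. Per the study's methods, the authors ran nf-core RNAseq, with STAR as aligner and RSEM to quantify genes, and the submitters' processing notes name GRCm38, R 4.2.2 and DESeq2 1.38.3; the annotation release is not given in the sources used here. The authors deposited 1 raw count per gene and library, always a whole number, for 28454 genes of which 1438 had no count and 7725 no symbol.

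Counts were scaled with TMM, filtered with filterByExpr and tested with edgeR 4.0.16's quasi-likelihood test in R 4.3.3, with Benjamini-Hochberg adjustment over all genes tested. The deprivation model held 8 groups of 3 libraries (13400 genes), with differences between lines as interaction contrasts; the subtype model had subtype as its one factor, over 30 control libraries (13795 genes); the NDI1 model held 6 libraries (12841 genes). Logarithms of CPM used a prior count of 2, and RPKM is CPM per kilobase of the GENCODE M21 exon union. At 19517859 to 29019988 counts per library, depth limited mainly Sesn3 in Myc310 and Trib2 in deprived LM1 and LM1-LM, and the p-values cover the spread between cultures. Promoters came from RefSeq. Alternatives were RLE and upper-quartile scaling, 2 other filters, DESeq2 1.42.0, a block for the replicate number, line as a random effect in limma 3.58.1's voom, counts summed per line, smaller or larger sets of libraries, and leaving out each line or replicate number. A single contrast each of the response, subtype and NDI1 models was also run on simulated counts with a fixed spread and independent libraries. That run did not cover the interaction contrasts, the tests among lines, DESeq2, voom or variation between lines. The marker genes Cd3e, Cldn5, Emcn, Sftpa1 and Sftpd were not used here.

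The 10 genes and all lists were chosen with earlier results of these data known. Named list genes are Atf4, Ddit3, Chac1, Asns and, in each list and comparison, the 3 largest called changes among genes averaging at least 3 on the log2 CPM scale whose groups did not overlap; the genes most like a member are the 3 with the highest Pearson r.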

Additional observations from a re-analysis of the deposited data

Results flagged for a closer look

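Tests of the difference itself separated the response of MYAZ16.1e from those of the other 3 deprived lines for most of the 10 genes; all values are differences of log2 fold changes from edgeR's quasi-likelihood test with adjusted p under the threshold, and the comparisons with MYAZ16.1e share its libraries. For Myc310 against MYAZ16.1e the differences were -0.63 for Sesn1, -1.04 for Sesn2, -0.49 for Ddit4, -0.97 for Trib2, -0.93 for Trib3, -0.18 for Depdc5, 0.37 for Tsc1 and -0.17 for Tsc2. For LM1 against MYAZ16.1e they were -0.41 for Sesn1, -1.15 for Sesn2, -0.43 for Sesn3, -0.32 for Ddit4, 0.62 for Trib1, -1.90 for Trib2, -0.29 for Depdc5, 0.67 for Tsc1 and -0.20 for Tsc2. For LM1-LM against MYAZ16.1e they were -0.54 for Sesn1, -1.18 for Sesn2, -0.45 for Sesn3, -0.24 for Ddit4, 0.66 for Trib1, -2.21 for Trib2, -0.39 for Depdc5, 0.75 for Tsc1 and -0.17 for Tsc2. For LM1 against Myc310 they were 0.48 for Trib1, -0.93 for Trib2, 1.10 for Trib3 and 0.29 for Tsc1. Several of these values rest on few cultures or on the tool. In LM1-LM the call of Ddit4 was lost in DESeq2 and without replicate 1, and Sesn3 went to -0.25 without replicate 3 and lost its call there and without replicate 2. Calls were also lost with 1 replicate number left out for Sesn1 and Sesn3 in LM1, for Tsc2 in the 3 comparisons with MYAZ16.1e, for Depdc5 in Myc310 (without replicate 1, -0.091 for Depdc5 and -0.084 for Tsc2 there) and for Tsc1 in LM1 against Myc310. Positive values mean a higher deprived-to-control ratio in the line named first.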

How the results depend on the processing

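For single genes, 2270 alternative values stayed on their side of the threshold, and those among them that were not called could change sign; 75 lost a call, 34 gained one and 1 called value turned. Sesn2 in deprived LM1-LM against MYAZ16.1e was -0.026 with upper-quartile scaling. The responses of Trib3, Sesn2, Ddit4, Trib1, Trib2, Sesn1 and Depdc5 kept direction and call in all 4 lines under each alternative run. The number of genes called for LM1-LM against LM1, 103 over all genes, was 218 without a filter and 4 to 44 with a replicate number left out; for LM1 against Myc310 it went from 3278 to between 2035 and 2438. For the NDI1 line it went from 2236 to between 898 and 1326, and the members called from 4 to between 2 and 3, the lowest without replicate 2. With counts summed per line, 2, 2 and 4 of the 10 genes and 1429, 3788 and 4226 of all genes were called in Myc310, LM and LM-LM against MYAZ. With line as a random effect in voom, all genes called were 2819, 4759 and 5054, and 3, 4 and 5 of the 10 genes were called, with Sesn1 and Sesn3 lost in Myc310, Depdc5 in LM and Depdc5 and Tsc2 in LM-LM. The cause of these shifts was not tested beyond the smaller number of samples that each leave-out has. The replicate number as a block left the members called at 9, 8, 8 and 8 in the 4 responses, with 7142, 8938, 9494 and 9661 of all genes against 7195, 8946, 9524 and 9699, and changed no count of members in any comparison. Same-numbered cultures correlated from -0.388 to 0.301 in their deviations from group means, and 3 of 12 correlated best with their own number, so the numbers were not taken to pair the cultures.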
